A study of Mus musculus with 3 samples.

Results

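The genes described here encode the protein subunits of the cytosolic ribosome in mouse esophageal organoid-derived cells. Members were all gene symbols that begin with Rpl or Rps followed by a digit, together with Rpsa, Rplp0, Rplp1 and Rplp2. Symbols with -ps and symbols that begin with Rps6k, which are kinases, were left out. The rule gave 86 of the 32287 features of the matrix, 52 of them Rpl or Rplp symbols and 34 Rps or Rpsa symbols. In kept cells 83 members had UMIs (unique molecular identifiers, each a counted RNA molecule). Rpl10l, Rpl39l and Rpl3l were at 0. A count of 3 would correspond to 0.0660 counts per 1000000 UMIs (CPM, the unit of all levels here), and the exact 95% interval of a count of 0 reaches 0.0812 CPM.

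Ribosomal proteins assemble with ribosomal RNA into the small subunit, which decodes messenger RNA, and the large subunit, which forms peptide bonds. Most are needed in equal numbers per ribosome, and their mRNAs share a run of pyrimidines at the 5′ end, the terminal oligopyrimidine (TOP) motif, through which mTOR signalling controls their translation. A few members have paralogs that can take their place, and free Rpl5 and Rpl11 bind Mdm2, the ligase that degrades p53. Because the mRNAs are abundant, they are also a large part of most single-cell libraries from dividing epithelium.

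The cells came from esophageal organoids of mice with floxed Trp53 alleles, recombined with a Cre and EGFP adenovirus, in which Cdkn2a was then disrupted with CRISPR/Cas9. These PC cells, which expressed Cas9 constitutively, were grown in DMEM with 10% FBS, at first with the kinase inhibitor Y-27632, received a barcode library by lipofection, were expanded over 3 passages and were sorted as live RFP-positive cells. Every cell analysed carried this background, so no p53-intact or Cdkn2a-intact control was compared, and the cells of a Notch1-edited line named in the design were not analysed here. The labels name 3 libraries (gene expression, barcode and scar) of this 1 culture, and the single matrix used here was treated as 1 sample without replicates.

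The matrix held 18116 barcodes beside about 20000 cells that the labels give as recovered. After removal of barcodes under 500 genes, under 1000 UMIs or over 20% mitochondrial UMIs, 14925 were left. Their median was 2955 UMIs and 1499 genes. In the epithelial gate defined below, which is cut on 9 epithelial markers, Epcam stood at 1279 and Krt5 at 741 CPM, while Krt15 was at 4.60. Among 8 immune and 5 endothelial markers, Ptprc, Adgre1, Cdh5 and Emcn were at or near 0, and Cd14 was the highest at 48.8 CPM in the epithelial gate. Since there was 1 sample, no test between conditions was possible. All intervals below are exact 95% intervals that cover counting error only, and differences between gates describe these cells.

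Start-site sequences are shown first because a pyrimidine run at the mRNA start is the feature by which this gene family is known. RefSeq promoter sequences (assembly GRCm38.p6) matched 66 of the 86 members. In the 100 bases around each first listed start, a run of at least 7 pyrimidines (C or T) beginning with C on the sense strand occurred in 55 of 66 members (83.3%) and in 40.8% of all 27025 genes of the table. The hexamer CTTTCC on the sense strand occurred in 19 members (28.8%) and in 4.67% of all genes, and CCGGAA on either strand in 20 members (30.3%) and in 8.43%. TATAAA on the sense strand occurred in 5 members (7.58%) and in 3.69% of all genes, and AAGATGG on either strand in 6 (9.09%) and in 2.70%. The counted run may lie anywhere in the window, and whether it is at the 5′ end of the mRNA was not tested. CTTTCC can lie within a counted pyrimidine run. A match is a description of the letters, and no match says only that they are not in this window. Windows of at most 30 bases are printed 5′ to 3′ with the run in capitals, for 2 pairs of paralogs whose balance differed between gates, for Rpl5 and Rps2 at the low end of the mesenchymal comparison, and for Rpl27a, which had the longest run.
Rpl22: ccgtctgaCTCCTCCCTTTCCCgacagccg
Rpl22l1: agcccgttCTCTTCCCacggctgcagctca
Rps27: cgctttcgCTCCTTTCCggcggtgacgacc
Rps27l: cgcctccaCTCCTCTCCactcctccccgcc
Rpl5: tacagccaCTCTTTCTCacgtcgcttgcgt
Rps2: ccgcggcgCCTCCCTCTT
Rpl27a: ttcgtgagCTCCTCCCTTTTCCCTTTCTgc

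These windows lie at chr4:152325679-152325708 on the plus strand for Rpl22, chr3:28805503-28805532 (plus) for Rpl22l1, chr3:90213629-90213658 (minus) for Rps27, chr9:66946056-66946085 (plus) for Rps27l, chr5:107900500-107900529 (plus) for Rpl5, chr17:24720095-24720112 (plus) for Rps2 and chr7:109519183-109519212 (plus) for Rpl27a. The run was 14 bases in Rpl22 and 8 in Rpl22l1, and 9 bases in both Rps27 and Rps27l. Counted from the annotated start, with −1 as the base before it, the run began at −39 in Rpl22, −22 in Rps27l and −20 in Rpl5, and ended upstream of the start in these 3. It began at −4 in Rpl27a and −2 in Rps27 and crossed the start, and at 4 in Rpl22l1 and 41 in Rps2. These positions vary, and the runs are not shown to be TOP motifs. Among matched members, Rpl24, Rpl19, Rpl23, Rplp0, Rps4x, Rps3, Rps3a1, Rps13 and Rps28 were without such a run in the window, as were Rpl10l and Rps19bp1.

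Together the members gave 6397037 of 45443280 UMIs in kept cells, or 14.08% (14.07 to 14.09). The median cell took 13.7% of its UMIs from them, with a 5th percentile of 5.39% and a 95th of 20.8%. That corresponds to a median of 394 ribosomal protein UMIs per cell. The 10 members with most UMIs gave 26.7% of the sum. UMIs were counted from 3′ ends and levels were not divided by gene length. Rps2, a small-subunit protein near the mRNA entry channel, was highest at 5837 CPM (5815 to 5859). The large-subunit proteins Rpl13 and Rpl9 followed at 4710 and 4377 CPM. Rpl23 stood at 3523, the stalk protein Rplp0 at 3399, and the X-linked small-subunit protein Rps4x at 3339. Rps10, Rps7 and the acidic stalk protein Rplp1 lay between 3131 and 3018 CPM.

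The median member stood at 1530 CPM and 60 members were above 1000. Core subunits with low values were Rpl31 (326 CPM) and Rpl4 (438 CPM). The other low members were mostly paralogs or proteins with another role. Rpl22l1, a paralog of the RNA-binding subunit Rpl22, stood at 278 CPM (273 to 282) beside 1201 for Rpl22. Rps27l, a p53-inducible paralog of Rps27 in the literature, stood at 456 beside 546 CPM. Rpl36al stood at 466 beside 861 for Rpl36a, and Rpl7l1 at 92.1 beside 1751 for Rpl7. Rps27rt was at 12.4 CPM. The counterparts of the paralogs at 0, Rpl3, Rpl10 and Rpl39, stood at 897, 2308 and 1453 CPM. Rps19bp1, which is not a ribosomal subunit although its symbol fits the rule, was at 35.9 CPM. Fau, whose product is a ubiquitin-like fusion with a small-subunit protein and which falls outside the rule, stood at 2316 CPM.

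Ribosomal protein genes have many processed pseudogenes, and this bears on the counts. The last 400 bases of the longest annotated protein-coding transcript of each member were compared with transcripts of all other genes (GENCODE M21 annotation). Of the 86 members, 63 shared at least 1 stretch of 50 bases, and 36 shared more than 50% of such stretches. The share was 100% for Rpl10, Rpl29 and Rpl36a, 84.3% for Rps2, 86.6% for Rpl24 and 59.5% for Rpl22l1, and 0 for Rpl22, Rpl5 and Rps24. A share of 0 holds for that transcript only, and the 3′ end in use in these cells was not examined. Not every sharing gene is a pseudogene, as those of Rpl7l1 include Cd9 and Bicd1. Only 16 members shared with a gene listed in the matrix, and the 5 -ps symbols held 7792 UMIs in all. Sharing genes without -ps in the symbol are not in that sum. Gm10076, which shared with Rpl41, held 15838 UMIs beside 59336 for Rpl41. Wdr89, which shared with Rplp2, held 2677. Counts of members that share sequence are uncertain where reads could be split or dropped.

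Cells were then placed in gates by marker UMIs. The epithelial gate took at least 3 UMIs from 9 epithelial genes and at most 2 from 12 mesenchymal genes, and the mesenchymal gate the reverse. Mixed cells had at least 3 of both and low-marker cells fewer than 3 of each. These gates are ranges and not cell types. At the epithelial limit 538 cells had 2 and 408 had 3 marker UMIs, and at the mesenchymal limit 145 and 153. Vim was at 5.68 CPM in the epithelial and 1138 in the mesenchymal gate, and Epcam at 1279 and 4.63. The mesenchymal gate retained some epithelial transcripts, with Krt14 at 81.2 CPM, and of its own markers Col1a2 was near 0 at 0.771 CPM. Doublets were not removed.

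The ribosomal share was lower in mesenchymal than in epithelial cells, and lowest of the gates plotted in barcodes rich in the nuclear RNA Malat1. It was 14.93% (14.91 to 14.94) in 12417 epithelial cells and 10.10% (10.07 to 10.13) in 1202 mesenchymal cells. The 610 mixed cells lay between them at 11.29% (11.25 to 11.33). The 696 low-marker barcodes pooled to 4.35% (4.31 to 4.39), but their median barcode had 0.821% and their 95th percentile was 14.6%. Median depth was 2953 UMIs in epithelial, 3164.5 in mesenchymal and 3950 in mixed cells, and 1221 in low-marker barcodes, whose median mitochondrial share was 9.15%. The low-marker value was 2.60% with a marker limit of 2 UMIs and 6.28% without Malat1-rich barcodes (chosen after seeing the data). It was 10.9% with gates read at equal depth, from counts thinned to 1500 UMIs. That setting leaves out every barcode with under 1500 UMIs, so most of this gate is dropped and the value describes another set of barcodes. The part of depth and mitochondrial share in the low-marker value was not tested. In pooled sums of this kind, fewer ribosomal mRNAs per cell and more of other mRNAs cannot be told apart.

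**Figure D1:**
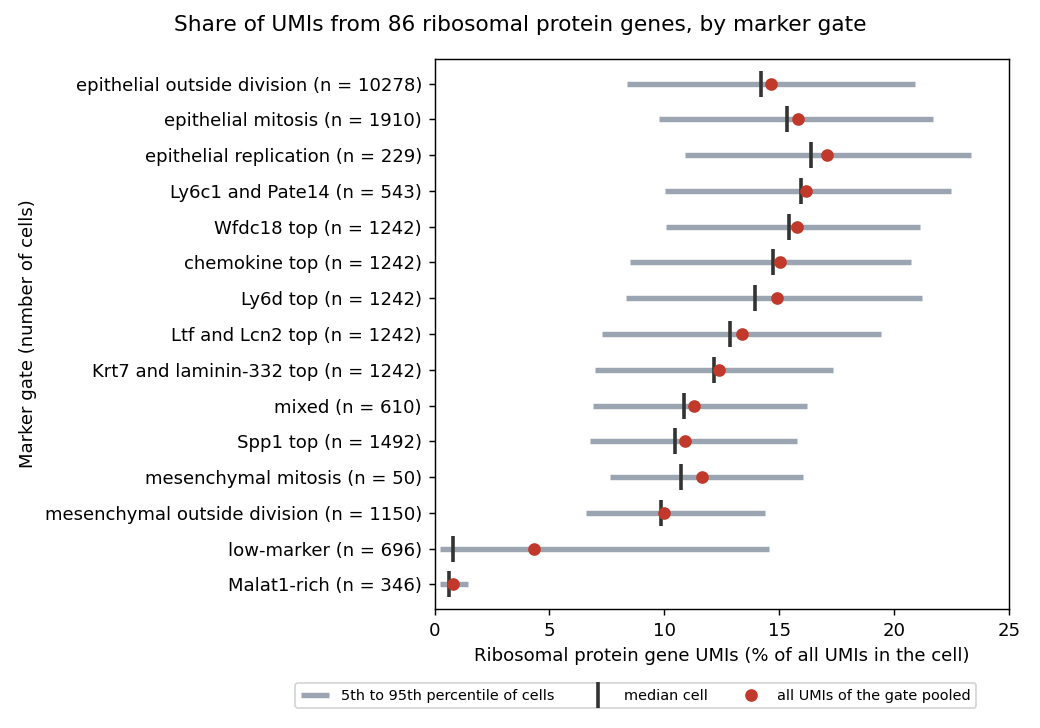
Share of each cell's UMIs from the 86 ribosomal protein genes (x axis, %) for 15 marker gates (y axis, with the number of cells). Red points pool all UMIs of a gate, black ticks are the median cell and grey bars run from the 5th to the 95th percentile of cells; gates within the epithelial cells lie from 12.4% to 17.1%, mesenchymal gates at 10.0% and 11.6%, and Malat1-rich barcodes at 0.789%.

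Depth moved with the share in epithelial cells. Over 5 equal bins of UMIs per cell the pooled epithelial share went from 12.76% in the shallowest to 15.64% in the deepest. Mesenchymal bins lay between 9.95% and 10.16%. Every epithelial bin was thus above every mesenchymal bin. The mitochondrial share moved the other way. From the lowest to the highest of 5 bins the ribosomal share went from 16.16% to 13.12% in epithelial and from 10.75% to 9.45% in mesenchymal cells.

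Dividing cells gave a higher share in both lineages. Mitosis gates held at least 5 UMIs from 14 mitosis genes, and replication gates at least 5 from 16 replication genes with fewer than 5 from mitosis. The epithelial share was 14.64% outside division (10278 cells), 15.81% in mitosis (1910 cells) and 17.10% in replication (229 cells). Mesenchymal cells stood at 10.01% outside division (1150 cells) and 11.63% (11.49 to 11.77) in mitosis (50 cells), and only 2 fell in replication. Mitotic cells were also deeper, with a median of 3809.5 UMIs against 2829 outside division in the epithelial gate, and the part of depth was not tested.

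Within the epithelial gate, cells were ranked by single programmes and the top 10% (1242 cells) was compared with the rest. The top by Krt7 and the laminin-332 chains, proteins of simple epithelium and of the basement membrane, had 12.37% against 15.15% in the rest, the widest gap of these 5 rankings. Its median depth was 2288 UMIs against 3022. The top by Ltf and Lcn2, secreted iron-binding defence proteins, had 13.39% against 15.09%. The top by Wfdc18 had 15.76% against 14.84%. The chemokine top was at 15.04% against 14.91%, and the top by Ly6d, a stratified-epithelium surface protein, at 14.89% against 14.93%. The 543 kept cells with at least 3 UMIs of Ly6c1 and Pate14, from any gate, stood at 16.16% against 14.83% in epithelial cells with fewer, with a median depth of 4096 UMIs. Over all kept cells the Spp1 top (1492 cells) had 10.91% against 14.47%. Within the epithelial gate the Spp1 top had 14.26% against 15.01%, and within the mesenchymal gate 9.49% against 10.16%.

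The balance between the subunits moved little. Small-subunit members gave 42.8% of ribosomal protein UMIs over all kept cells. The share was 42.5% (42.4 to 42.5) in epithelial cells outside division, 43.8% (43.7 to 43.9) in mitosis and 44.4% (44.1 to 44.7) in replication. Mesenchymal cells stood at 42.5% (42.4 to 42.7). Rps2, the small-subunit member with most UMIs, stood above the common trend in both dividing epithelial gates, as given below. Neither of these departures was called. The small-subunit shares include Rps2 and were not recomputed without it.

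In mesenchymal against epithelial cells 79 of 83 members had a ratio under 1, beside 50.6% of all genes compared. Rpl22l1 had the highest ratio of the members. A member is called higher or lower here when its CPM differed by at least 1.5-fold, the higher CPM was at least 10 and the 95% intervals did not overlap. By that rule 31 of 83 members (37.3%) were lower and none was higher. Over all 9152 genes compared, 20.8% were called lower and 20.8% higher, and of genes at 100 CPM or more 19.5% were lower and 23.5% higher. The members' median ratio was 0.707 beside 0.992 for all genes. The 31 were 17 large-subunit and 14 small-subunit symbols. The sum of all members stood at a ratio of 0.676, and the departure of a member is its own ratio divided by that of the sum. A departure of 1 means that a member kept its share of ribosomal protein UMIs.

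Of 83 members, 27 had a departure between 0.9 and 1.1. Departures were called at 1.5-fold either way with non-overlapping intervals. Against the ribosomal sum as the common yardstick, 48.0% of all genes were called higher and 9.19% lower. Among members 3 (3.61%) were called higher and none lower. In cells outside division (gates as above) 29 members were lower and none higher beside 19.6% and 20.9% of all genes, and 3 departures were higher and none lower beside 48.2% and 8.90%.

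The first was Rpl22l1, at chr3:28805436-28807424. Its level was 266 CPM (261 to 272) in epithelial and 372 CPM (353 to 391) in mesenchymal cells, and its departure was 2.06 (1.95 to 2.18). Its own ratio of 1.40 was the highest of the 83 and short of a call by level, and 4 members in all had a ratio above 1. Rpl22 itself, at chr4:152325742-152334071, kept to the trend with 1268 and 881 CPM and a departure of 1.03.

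The second was Rps27l, with 457 CPM in epithelial and 489 in mesenchymal cells and a departure of 1.58 (1.51 to 1.66). Rps27, a zinc-finger small-subunit protein, had 568 and 459 CPM and a departure of 1.19. The third was Rpl24, a large-subunit protein of the intersubunit bridge, with 1316 and 1351 CPM and a departure of 1.52 (1.48 to 1.56). Rpl24 lay just inside the limit. Its departure was 1.45 when the median member set the trend, 1.46 with equal weight for each cell and 1.47 outside division, and was then not called.

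Just outside were the small-subunit protein Rps24 at 1.495 (1.46 to 1.53), Rpl34 at 1.43, Rps14 at 1.42 and Rps28 at 1.40. Rps24 passed the limit with the stricter cell filter (1.53), with a marker limit of 2 UMIs (1.503) and outside division (1.52). At the other end, chosen after their values were seen, Rpl5 had 2771 CPM in epithelial and 1296 in mesenchymal cells and a departure of 0.69 (0.67 to 0.71). Rpl6, a large-subunit protein, had 2271 and 1064 CPM and the same departure of 0.69. Both were called lower when the median member set the trend. Rpl11, which joins Rpl5 in the 5S particle and in Mdm2 binding, followed the sum at 0.99. Rpl9 and Rps2 both stood at 0.73. Across the 83 members Spearman's rho between departure and level was −0.49, a description across genes of the same libraries.

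**Figure D2:**
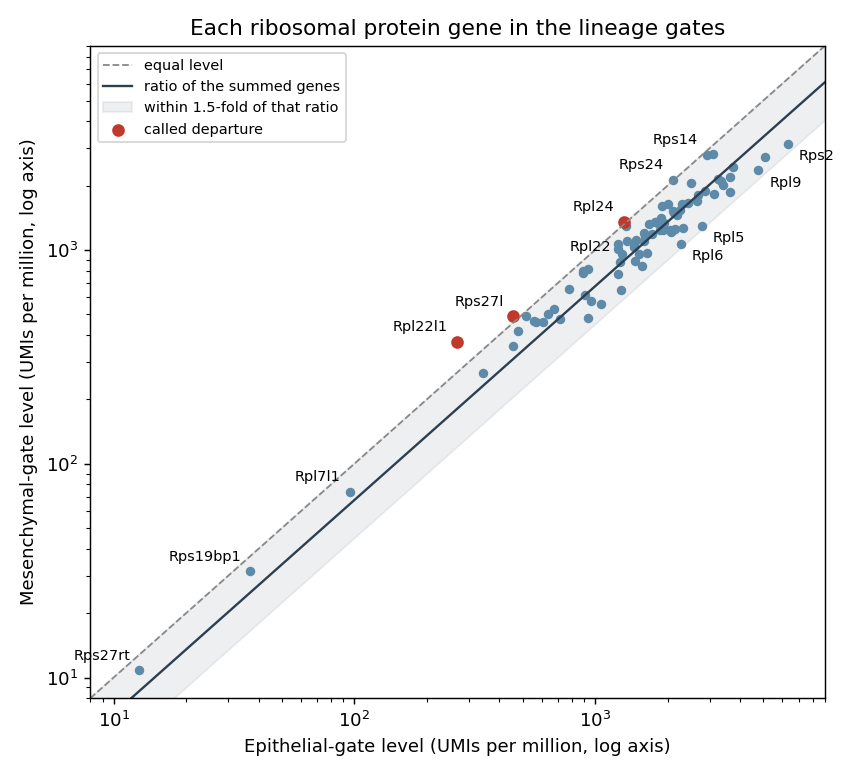
Level of each ribosomal protein gene in the epithelial gate (x axis) and the mesenchymal gate (y axis), in CPM on log axes. The solid line is the ratio of the summed genes, 0.676, with a band of 1.5-fold around it; Rpl22l1 (266 and 372 CPM), Rps27l and Rpl24, in red, are the called departures above the band, and Rpl5 and Rpl6 lie at its lower edge.

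The genes around the ribosome are given from lists of the translation and ribosome assembly machinery, beside the 20.8% of all genes called lower and 20.8% called higher. Of 3 other ribosome components, Rack1 (ratio 0.60) and Fau (0.61) were called lower. Of 20 translation genes of the TOP class, 9 were lower and none higher, with a median of 0.706. The lowest ratios were those of the elongation factor subunit Eef1g at 0.37, the initiation factor Eif3f at 0.43, the poly(A)-binding protein Pabpc1 at 0.43 and the snoRNA host Gas5 at 0.47. Tpt1, also of this class, had a ratio of 1.33 and was not called. Of 26 ribosome biogenesis genes tested, 8 were lower, among them Dkc1 (0.39), Nhp2 (0.41), Nolc1 (0.45) and the rRNA methyltransferase Fbl (0.52). The polymerase I subunit Polr1a was higher at 1.57 from 47 UMIs. Of 14 genes of ribosome control and stress, the elongation factor kinase Eef2k (0.36) and Myc (0.52) were lower. Genes for mitochondrial ribosomal proteins, which serve the separate ribosome of that organelle, had 7 lower and 4 higher of 78 and a median of 0.981, so both of their shares were under those of all genes.

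In mixed cells the ribosomal share of 11.29% lay between those of both gates. Against epithelial cells 12 of 83 members (14.5%) were called lower and none higher, beside 17.6% and 15.4% of all genes, so the count is no more than the background. The called departure was again Rpl22l1, at 349 CPM and 1.73 (1.61 to 1.86), while 34.0% of all genes were called higher and 7.56% lower on this scale. Rpl5 had the lowest value at 0.72. Against mesenchymal cells no member was called, beside 2.58% of all genes higher and 1.57% lower, and no departure was, beside 1.81% and 4.82%. Their depth of 3950 UMIs was above that of both gates, and whether they were doublets was not tested.

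The balance of 5 paralog pairs was compared between gates without a fold limit. Other gene pairs were not compared, so a separation of intervals has no background share beside it. Rpl22l1 gave 0.210 UMIs per Rpl22 UMI (0.206 to 0.215) in epithelial cells, 0.422 (0.396 to 0.449) in mesenchymal and 0.349 (0.323 to 0.378) in mixed cells. Mesenchymal cells outside division had 0.430 and in mitosis 0.304 (0.229 to 0.400). Among epithelial cells the ratio was 0.371 (0.346 to 0.398) in the Krt7 and laminin-332 top against 0.199 in the rest. It was 0.143 in the Ly6c1 and Pate14 cells against 0.215 in epithelial cells with fewer of those UMIs. The Wfdc18 top was at 0.175, the Ly6d top at 0.173 and mitosis at 0.190. The Spp1 top over all kept cells, which spans the lineage gates, stood at 0.380 (0.359 to 0.401) and low-marker barcodes at 0.408. Within the epithelial gate the Spp1 top was at 0.210, the same as the rest. Within the mesenchymal gate it was at 0.388 (0.309 to 0.484) against 0.425. The interval of the Krt7 and laminin-332 top overlapped that of the Spp1 top over all kept cells. It lay above the values of the other epithelial programmes named here, the Spp1 top within the epithelial gate included.

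**Figure D3:**
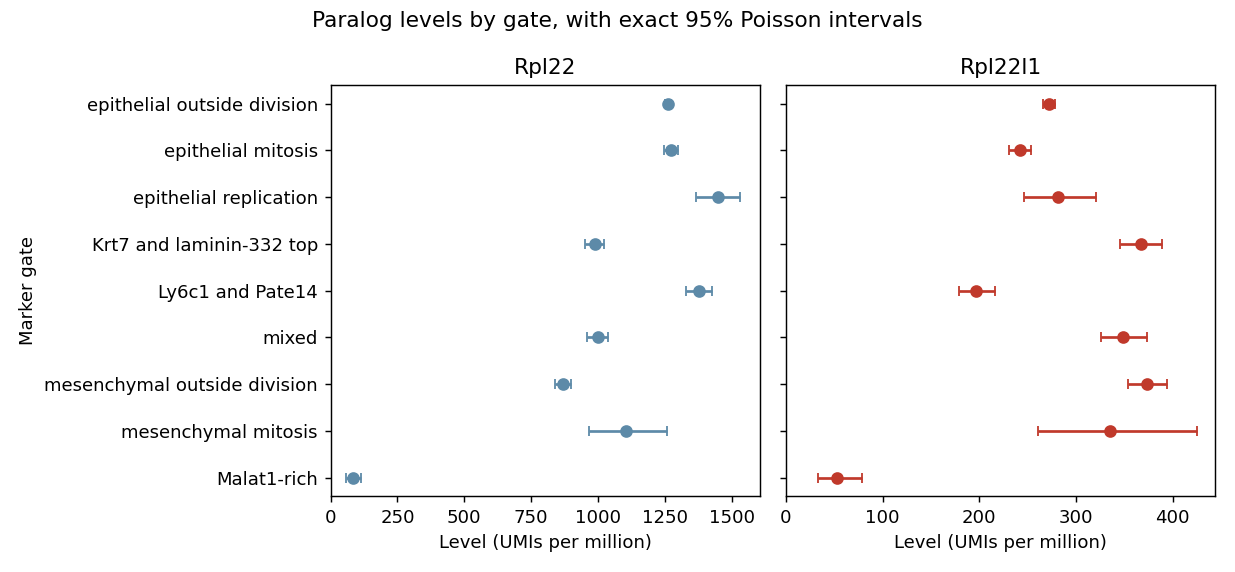
Levels of Rpl22 (left) and its paralog Rpl22l1 (right) in CPM for 9 marker gates, with exact 95% Poisson intervals as bars and an axis of its own for each gene. Rpl22 was at 881 and Rpl22l1 at 372 over the mesenchymal gate, whose 2 parts are drawn, and the Krt7 and laminin-332 top had Rpl22l1 at 367.

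Rps27l gave 0.804 UMIs per Rps27 UMI (0.788 to 0.821) in epithelial and 1.07 (0.998 to 1.14) in mesenchymal cells. This pair also differed inside the epithelial gate. It was 0.981 (0.938 to 1.03) in mitosis, 0.982 in replication and 0.759 outside division. The Ly6d top was at 0.617 (0.577 to 0.661) and the Ltf and Lcn2 top at 0.670 (0.626 to 0.718), while Ly6c1 and Pate14 cells were at 1.09 (1.00 to 1.18). Rpl36al per Rpl36a went from 0.514 in epithelial to 0.864 (0.808 to 0.924) in mesenchymal cells and stood at 0.669 in the Krt7 and laminin-332 top. Rpl7l1 per Rpl7 was 0.0515 (0.0498 to 0.0532) in epithelial and 0.0595 (0.0526 to 0.0671) in mesenchymal cells, and Rps27rt per Rps27 was 0.0225 (0.0206 to 0.0247) and 0.0235 (0.0169 to 0.0319). Intervals of both pairs overlapped. The share of 3′ stretches held by other transcripts was 100% in Rpl36a, 77.8% in Rpl36al, 73.5% in Rps27, 59.5% in Rpl22l1 and 9.97% in Rps27l, so these pairs are uncertain where reads could be split or dropped.

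In dividing epithelial cells Rps2 was the member that stood highest above the common trend. Against epithelial cells outside division, no member was called in mitosis, beside 10.1% of all genes higher and 6.40% lower. The median ratio was 1.07. Rps2 went from 5857 CPM outside division to 7984 in mitosis (ratio 1.36, departure 1.26) and to 9030 in replication. In replication Rps2 was called higher (ratio 1.54, departure 1.32), 1 of 83 members beside 8.73% of all genes, and none was lower beside 5.77%. Rpl41, the shortest ribosomal protein, had a ratio of 1.29 in mitosis. Other transcripts held 66.7% of its 3′ stretches, so its counts are uncertain where reads could be split or dropped. Neither gate gave a called departure, beside 8.48% of all genes higher and 10.3% lower in mitosis, and 5.33% higher and 15.0% lower in replication. In mesenchymal mitosis 1 member was higher, the laminin receptor and small-subunit protein Rpsa at 2107 against 1291 CPM (ratio 1.63), beside 6.12% of all genes, with 433 UMIs from 50 cells, and none was lower beside 3.20%. Its departure of 1.40 was not called, nor was any other, beside 4.35% of all genes higher and 6.27% lower.

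Beside the 10.1% of all genes called higher in mitosis and 8.73% in replication, lists of surrounding genes gave these counts. Ribosome biogenesis genes had higher median ratios in these gates, 1.2496 in mitosis and 1.54 in replication, than the members, with 1.07 and 1.15. In mitosis 7 of 26 were called higher and none lower, led by Nop58 at 1.84, Dkc1 at 1.75, Nop56 at 1.74 and Nhp2 at 1.67. In replication 13 of 27 were higher and none lower, led by Polr1a at 2.43 from 14 UMIs, Nop56 at 2.17, Fbl at 2.16 and Nop58 at 2.15. Of the 20 TOP-class genes, the histone chaperone Nap1l1 was higher in both, at 1.63 and 1.72, and Eif4b was lower in replication at 0.60. Mitochondrial ribosomal protein genes had 5 of 78 higher in mitosis, a smaller share than that of all genes, and 7 in replication, near it. Myc stood at 0.76 in mitosis and 1.104 in replication and was not called.

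In the Krt7 and laminin-332 top 2 members (2.41%) were lower and none higher, beside 2.79% and 5.62% of all genes. They were Rps4x, with 2387 against 3723 CPM (ratio 0.64), and Rpl36a, with 621 against 961 CPM (0.65). With the stricter cell filter, or with gates read at equal depth, neither was called. Rpl22l1 was the called departure, with 367 CPM (346 to 389) against 258 (252 to 263) and a value of 1.74 (1.64 to 1.86). On this scale 25.7% of all genes were called higher and 0.862% lower. Its departure was 1.61 with the stricter filter and 1.58 at equal depth. Rps27l came next at 1.41 and was not called. The X-linked members Rps4x, Rpl36a, Rpl39 and Rpl10 had the 4 lowest departures of this comparison, between 0.78 and 0.83, and were noticed after the values were seen. In mesenchymal cells the first 3 of them stood at 0.76 to 0.79 and Rpl10 at 1.01.

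In 5 further programmes no member passed the rule for a call. No member was called in either direction in the Ltf and Lcn2 top, beside 6.41% of all genes higher and 6.16% lower. The same held for the Wfdc18 top (0.931% and 3.67%), the chemokine top (2.98% and 6.87%), the Ly6d top (4.92% and 7.39%) and the Ly6c1 and Pate14 cells (3.16% and 3.77%). None of the 5 gave a called departure. On that scale the shares of all genes called higher and lower were 10.4% and 3.69% in the Ltf and Lcn2 top, 0.707% and 5.68% in the Wfdc18 top, 2.92% and 7.21% in the chemokine top, 4.95% and 7.23% in the Ly6d top and 2.03% and 7.42% in the Ly6c1 and Pate14 cells. Rpsa had the lowest departure in the Ltf and Lcn2 top, at 0.81 (1349 against 1882 CPM). Rps27l was lowest in the Ly6d top at 0.81. Rpl22l1 stood at 0.67 (0.61 to 0.73) in the Ly6c1 and Pate14 cells, with 197 against 271 CPM, just short of a call. The Spp1 top over all cells had 11 members lower (13.3%) and none higher, beside 14.8% and 15.1% of all genes. Rpl22l1 was its called departure at 1.75, and none was called lower, beside 34.8% and 6.81% of all genes. Within the epithelial gate the Spp1 top had no called member (3.28% of all genes higher, 2.31% lower), nor had it within the mesenchymal gate (2.09% and 1.38%), and there was no called departure in either (4.49% and 1.69%, and 3.41% and 0.767%).

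Malat1-rich barcodes held little ribosomal protein mRNA. In the 346 barcodes with at least 10% of UMIs from Malat1, members gave 0.789% (0.763 to 0.816) of UMIs against 14.21% in all others. Only 8 ribosomal protein UMIs were found in the median barcode. Their median depth was 1158.5 UMIs and their median mitochondrial share 10.9%, and the part of these in the result was not tested. Of the 83 members 82 (98.8%) were lower, all but Rps27rt with 2 UMIs, beside 28.7% of all genes, and none was higher, beside 33.5%. The members' median ratio was 0.0558, and that of all genes 1.13. Of the 662 kept barcodes with under 3% ribosomal UMIs (4.44% of all kept), a limit set after the values were seen, 343 were Malat1-rich and 517 were low-marker. Epcam stood at 156 and Dsp at 121 CPM in the Malat1-rich barcodes. The mesenchymal markers there were mixed. Vim was at 0, but Zeb2 stood at 57.3 and Zeb1 at 29.8 CPM. In the epithelial gate Zeb2 and Zeb1 stood at 8.25 and 3.49, and in the mesenchymal gate at 101 and 96.1.

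Within that small remainder the members did not keep their proportions. On the ribosomal yardstick 11 were called higher (13.3%) and 7 lower (8.43%), where 82.6% of all genes were called higher and 0.138% lower. The highest were Rpl7l1 at 8.46 (5.09 to 13.2) from 19 UMIs and Rps19bp1 at 6.85 (2.51 to 14.9) from 6 UMIs, the first a nucleolar relative of Rpl7 and neither a standard subunit. Rpl22l1 followed at 3.39 (2.15 to 5.09) from 23 UMIs, with 52.7 against 280 CPM. Standard subunits followed at smaller values, Rpl6 at 2.46 (2.05 to 2.93) from 125 UMIs and Rpl3 at 2.005 from 44. Rpl5 was among those called, at 1.76 from 109 UMIs, in contrast to its low place in mesenchymal cells. Among those called lower were Rps2 at 0.57, Rplp0 at 0.59, and Rplp1 and Rps4x at 0.60, from 44 to 82 UMIs each. Small-subunit members gave 39.4% (37.7 to 41.0) of the sum here against 42.8% elsewhere. With gates read at equal depth 6 departures were higher and 4 lower, and the shares of all genes were not computed there. That setting leaves out barcodes with under 1500 UMIs, and the median Malat1-rich barcode had 1158.5. Most of this gate is thus missing there, and the counts do not test the part of depth.

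**Figure D4:**
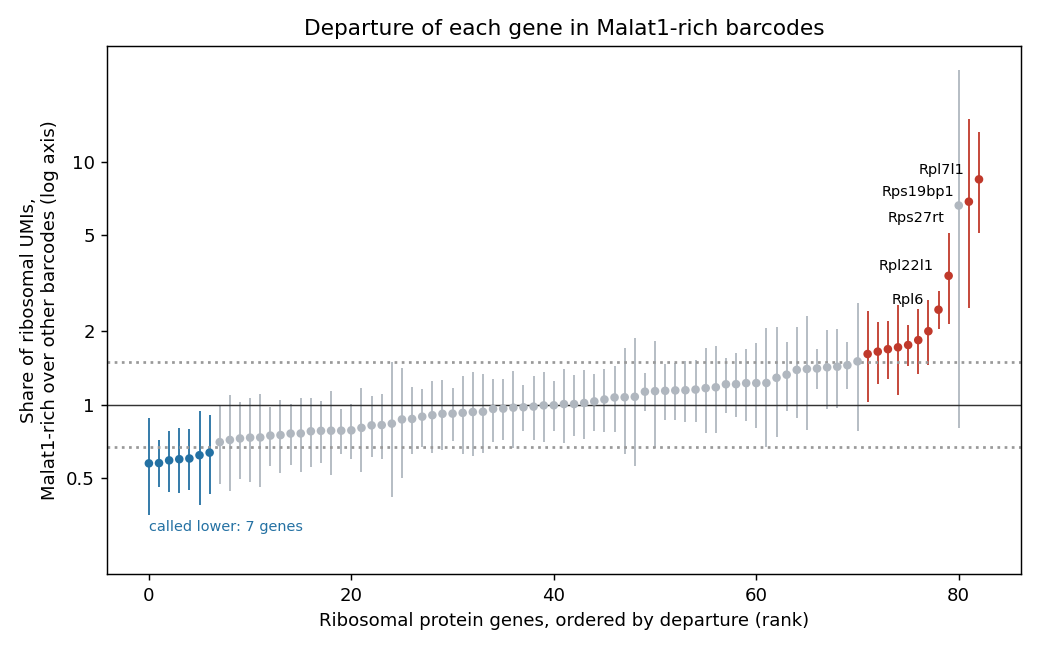
Departure of each of 83 ribosomal protein genes in Malat1-rich barcodes against all other barcodes (y axis, log scale; 1 means an unchanged share of ribosomal protein UMIs), in rank order on the x axis. Bars are 95% intervals of counting error, dotted lines mark 1.5-fold, red and blue mark the 11 higher and 7 lower calls, and Rpl7l1 stands at 8.46 while Rps27rt, with 2 UMIs, is not called.

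Of the surrounding genes, 3 of 3 other ribosome components, 19 of 20 TOP-class genes and 64 of 77 mitochondrial ribosomal protein genes were lower in Malat1-rich barcodes, beside 28.7% of all genes lower and 33.5% higher. The TOP-class gene that was not called was the snoRNA host Snhg8, with 126 against 122 CPM. Ribosome biogenesis genes had 15 lower and 1 higher of 26, the latter Wdr43 at 2.27. Of 15 control and stress genes 6 were higher and 5 lower, shares near those of all genes. The higher ones were led by Mdm2 at 4.61 (174 against 37.8 CPM), the mTORC1 subunit Rptor at 3.72, the S6 kinase Rps6kb2 at 3.20 from 8 UMIs and the ribosome rescue factor Hbs1l at 3.12.

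At 1500 UMIs per cell, the spread of most members around the ribosomal sum was little above that of sampling. After thinning 13281 cells to 1500 UMIs each (1644 kept barcodes were too shallow), the dispersion of a member given the cell's ribosomal UMIs is 1 when sampling alone spreads it. Over 81 members with a mean of at least 0.1 UMIs the median was 1.13 and the range 1.02 to 1.86. Among the lowest were Rpl31 at 1.02, and Rps13, Rpl36 and Rpl38 at 1.05. The highest were Rps2 at 1.86, Rps14 at 1.51, Rpl22l1 at 1.44, Rps24 at 1.39 and Rps4x at 1.38. Within the epithelial gate alone the same 5 were highest, with Rps2 at 1.90, Rps14 at 1.48, Rps4x at 1.40, Rpl22l1 at 1.38 and Rps24 at 1.36. Rpl22l1 combined a high dispersion with a low mean of 0.432 UMIs, whereas the other 4 had means of 3.16 to 8.59. Thinned to 1000 UMIs, Rpl7l1 was highest at 1.55, from 1.14 at 1500, and Rps2 stood at 1.54 and Rpl22l1 at 1.38. Without thinning Rps2 stood at 2.78 and Rpl22l1 at 1.85. Members at 1.2 or more numbered 8 at 1000 UMIs, 17 at 1500 and 54 without thinning. The cells differ as well, since the settings at 1000 UMIs and without thinning include the 1644 barcodes too shallow for 1500. The value thus moved with the setting, and the parts of depth and of those barcodes were not tested. A value near 1 does not show that a member's share is even over cells.

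**Figure D5:**
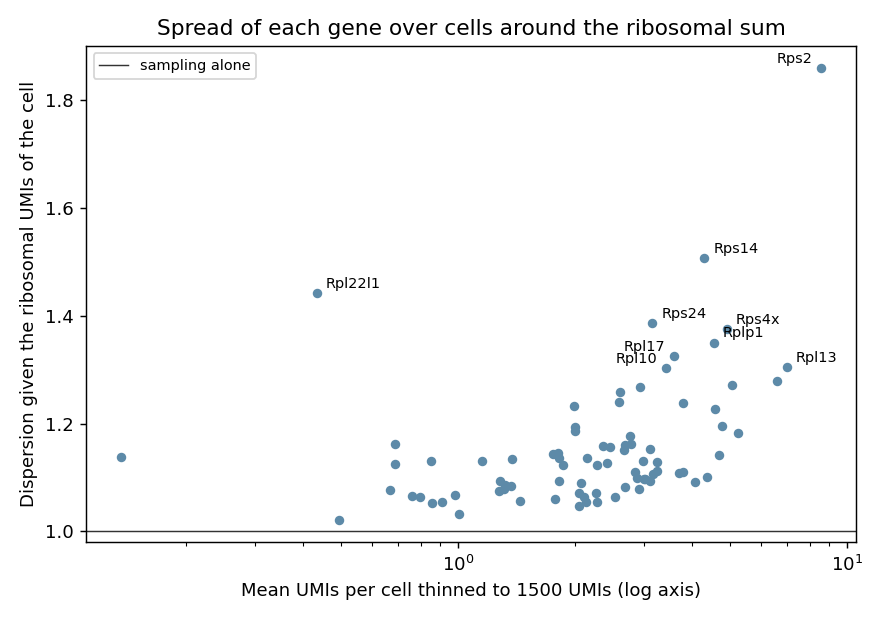
Dispersion of each ribosomal protein gene over cells given the cell's ribosomal protein UMIs (y axis; the line at 1 is sampling alone) against its mean UMIs per cell after thinning to 1500 UMIs (x axis, log scale), for 81 genes. Most lie between 1.02 and 1.2, while Rps2 (1.86), Rps14 (1.51) and Rpl22l1 (1.44, at a mean of 0.432) stand above them.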

How the data were processed

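Single-cell RNA of 1 culture of PC organoid cells was analysed from 1 deposited matrix of UMI counts per gene and barcode, which the authors made with Cell Ranger 8.0.1, per the file headers, against mm10, per the submitters' processing notes. The labels describe a 3′ kit. Which barcodes belong to the barcode and scar libraries was not used, and the matrix was treated as 1 sample. Counts were used as deposited: barcodes with under 500 genes, under 1000 UMIs or over 20% mitochondrial UMIs were left out (3191, 17.6%), doublets were not called, and UMIs were pooled per gate. Sums were scaled to counts per 1000000 UMIs (CPM). Calls needed a 1.5-fold difference, at least 10 CPM in the higher gate and intervals that did not overlap. Intervals were exact Poisson (levels), exact binomial (Clopper-Pearson; shares) and conditional binomial (ratios) at 95%, and cover counting error only. Gates, members and gene lists were chosen with earlier results of these data known. Named members were the 10 with most UMIs, the 5 highest and lowest by dispersion, up to 5 called departures per direction and comparison, the paralogs with their counterparts, Rpl5, Rpl11, Rps19bp1 and Fau, and up to 4 called genes per list; other members named, such as Rpl6, Rpl9, Rpl34, Rpl41, Rps28 and Rpsa, were chosen after their values were seen. A few members that this rule names are not reported here. The motif letters and the 50-base comparison were also chosen after seeing the data. The calls were tried on simulated Poisson counts with known changes larger than the 1.5-fold limit. There 199 of 200 changed genes and 11 of 8220 unchanged genes were called. The simulated counts had no spread between cells, so this covers counting error only. Python 3.11.15, numpy 2.4.6, scipy 1.17.1 and pandas 2.3.3 were used. Promoter windows came from RefSeq (GRCm38.p6) and gene positions from GENCODE M21. Alternatives covered cell filters, marker limits, equal depth (thinning), the denominator, the member list, the fold, the trend and the weight of cells. Gates read at equal depth used counts thinned to 1500 UMIs and left out the 1644 kept barcodes with fewer. Shares and ratios in that setting were still taken from the full counts.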

Additional observations from a re-analysis of the deposited data

How the results depend on the processing

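The design has 1 sample, so nothing was replicated. No paired analysis was possible because no result comes from a test between samples. No result recomputed under these settings was called in the opposite direction. The epithelial share of 14.93% became 15.18% with at least 1000 genes and 2000 UMIs, 14.96% with at most 10% mitochondrial UMIs, 14.75% without the 10% deepest cells, 14.87% and 15.00% with marker limits of 2 and 5 UMIs, 15.08% with gates read from counts thinned to 1500 UMIs, 16.58% with Malat1, mitochondrial, added and marker genes out of the denominator, 15.21% with Fau, -ps and further symbols added, and 14.96% without Malat1-rich barcodes (chosen after seeing the data). The mesenchymal share became 10.03% without the deepest cells, 10.00% with a limit of 2, 10.13% thinned, 10.99% with the other denominator and 10.27% with added symbols. The Malat1-rich share became 0.853% with at most 10% mitochondrial UMIs, 1.03% thinned and 1.11% with the other denominator. The stricter gene and UMI filter gave no value for it. The thinned Malat1-rich values here and below leave out barcodes with under 1500 UMIs, which are most of that gate.

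The ratio of mesenchymal to epithelial share (0.676) was 0.665 with the stricter filter, 0.680 without the deepest cells, 0.672 with a limit of 2, 0.671 thinned, 0.663 with the other denominator and 0.683 outside division (the last chosen after seeing the data). The Malat1-rich ratio (0.0555) was 0.0598 with at most 10% mitochondrial UMIs, 0.0718 thinned and 0.0702 with the other denominator. The Krt7 and laminin-332 ratio (0.817) was 0.832 with the stricter filter, 0.821 with at most 10% mitochondrial UMIs, 0.811 and 0.822 with marker limits of 2 and 5, 0.856 thinned and 0.810 with the other denominator.

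Counts moved with the fold. The fold limit was set to 2 and to a value between 1 and 1.5. The shares of all genes called were not computed at these limits or in the other settings of this paragraph, so these counts have no background. At these limits 4 and 60 members were lower in mesenchymal cells. Members higher there ranged from 0 to 1 over the settings. Departures higher there were 1 and 13, and lower ones 0 and 10; with the median member as trend 2 were lower. In Malat1-rich barcodes higher departures were 6 thinned and 5 at 2-fold, and lower ones 4 with at most 10% mitochondrial UMIs, 4 thinned and 0 at 2-fold. In the Krt7 and laminin-332 top the members lower were 0 with the stricter filter, 0 thinned, 0 at 2-fold and 37 at the smaller fold, with higher departures 0 and 5 at these folds and 2 lower at the smaller fold. Members with a dispersion of at least 1.2, a limit set after seeing the data, numbered 17, 54 without thinning and 8 at 1000 UMIs. The departure of Rpl22l1 ranged from 1.83 to 2.18 in mesenchymal cells, from 1.58 to 1.77 in the Krt7 and laminin-332 top and from 3.03 to 3.54 in Malat1-rich barcodes.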
